A study of Homo sapiens with 4 samples.

Results

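The genes described here encode 10 enzymes that make serine and pass its carbon through the folate pool. They were chosen by name, as the rows of the deposited count table whose identifiers map to the symbols PHGDH (ENSG00000092621), PSAT1 (ENSG00000135069), PSPH (ENSG00000146733), SHMT1 (ENSG00000176974), SHMT2 (ENSG00000182199), MTHFD1 (ENSG00000100714), MTHFD2 (ENSG00000065911), MTHFD1L (ENSG00000120254), MTHFD2L (ENSG00000163738) and ALDH1L2 (ENSG00000136010). All 10 were found among 20263 genes, and all 10 passed the filter on low counts that left 13744 genes for testing. In cells treated with RB-BC, the mitochondrial serine hydroxymethyltransferase SHMT2 rose 1.97-fold, PSAT1 of serine synthesis rose 1.78-fold, and the mitochondrial folate dehydrogenase MTHFD2 rose 1.75-fold. SHMT1, the cytosolic counterpart of SHMT2, fell to 0.645 of its level in DMSO. The other 6 genes did not pass the test.

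Cells make serine from the glycolytic intermediate 3-phosphoglycerate in a chain of enzymes: PHGDH oxidises it, PSAT1 adds an amino group and PSPH removes the phosphate. Serine hydroxymethyltransferases then split serine into glycine and a one-carbon unit bound to tetrahydrofolate, SHMT1 mainly in the cytosol and SHMT2 in mitochondria. Mitochondrial enzymes (MTHFD2, MTHFD2L and MTHFD1L) carry that unit to formate, which leaves for the cytosol, where MTHFD1 returns it to folate for the synthesis of purines and thymidylate. ATF4, a transcription factor induced by amino acid shortage and other stresses, is known to drive PHGDH, PSAT1, SHMT2 and MTHFD2, and MDA-MB-231 is known as a breast cancer line without the PHGDH amplification that some other lines carry.

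Total RNA was sequenced from cultures of MDA-MB-231, an established human cell line of triple-negative breast cancer that carries mutant p53, kept with 10% serum and given DMSO (the vehicle) or RB-BC for 24 h. RB-BC is named as a derivative of ribociclib, a drug against the kinases CDK4 and CDK6. Its dose was not stated, and the treatment protocol names the compound Rib_CA without saying whether that is RB-BC. Each group held 2 libraries, numbered 1 and 2, all from this 1 line, and nothing in the labels says that they came from separate cultures, so p-values measure only the spread between these libraries.

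Library totals ran from 34774542 to 42786422 counts. The DMSO 2 library stood apart: 21.7% of its counts were from mitochondrially encoded genes, against 8.68% to 10.3% in the other libraries. Levels are in CPM, counts relative to the scaled size of the library. Of 8 genes expected in MDA-MB-231, all but SPARC (0.531 to 1.28 CPM) were at 263.8 CPM or more in every library. CAV1 was the lowest of these in RB-BC (573 ± 1.70 CPM in DMSO and 268 ± 5.87 CPM in RB-BC). A list of 8 luminal and epithelial genes expected to be low, with no HER2 gene among them, summed to 237 to 335 CPM. Most of that sum was KRT8 (214 to 295 CPM), GATA3 reached 21.4 CPM in DMSO 2, and ESR1 stayed between 0.138 and 0.611 CPM. Markers of other cell types were low in sum: leukocyte markers (6 genes, CD3E with no count) at 0.955 to 1.12 CPM in DMSO and 1.64 to 2.03 CPM in RB-BC, endothelial markers (4 genes) at 6.80 to 7.57 and 10.7 to 13.7 CPM, and fibroblast markers (5 genes, COL1A2 and DCN with no count) at 7.25 to 8.09 and 3.29 to 3.97 CPM. Their part in the results was not tested.

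Promoter sequence was at hand for 7 of the 10 genes, from RefSeq (GRCh38.p14), as windows from 250 bases before to 50 bases after each annotated start. The stretches below are the 250 bases before the start, 5′ to 3′ on the gene's strand, for 3 genes with higher values in RB-BC, the pair of cytosolic genes with lower values, and MTHFD1L. They are shown because the members moved in opposite directions, and capitals mark matches to the motifs described after them.
PHGDH, chr1:119711684-119711933 (+): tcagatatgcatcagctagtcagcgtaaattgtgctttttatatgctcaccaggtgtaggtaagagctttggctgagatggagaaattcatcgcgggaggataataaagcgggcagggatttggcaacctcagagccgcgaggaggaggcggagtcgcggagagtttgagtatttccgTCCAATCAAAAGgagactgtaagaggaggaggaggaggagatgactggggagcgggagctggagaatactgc
PSAT1, chr9:78296875-78297124 (+): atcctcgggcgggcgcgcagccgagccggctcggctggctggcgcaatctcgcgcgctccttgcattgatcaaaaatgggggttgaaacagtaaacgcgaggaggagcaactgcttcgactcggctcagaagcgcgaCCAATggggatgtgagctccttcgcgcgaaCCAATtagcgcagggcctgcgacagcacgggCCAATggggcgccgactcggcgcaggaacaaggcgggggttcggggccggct
MTHFD2, chr2:74198365-74198614 (+): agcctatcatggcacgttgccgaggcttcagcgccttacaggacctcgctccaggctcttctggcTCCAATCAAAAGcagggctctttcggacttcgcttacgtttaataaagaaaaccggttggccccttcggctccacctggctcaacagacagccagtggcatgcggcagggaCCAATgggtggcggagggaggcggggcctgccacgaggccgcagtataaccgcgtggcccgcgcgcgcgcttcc
SHMT1, chr17:18363551-18363800 (-): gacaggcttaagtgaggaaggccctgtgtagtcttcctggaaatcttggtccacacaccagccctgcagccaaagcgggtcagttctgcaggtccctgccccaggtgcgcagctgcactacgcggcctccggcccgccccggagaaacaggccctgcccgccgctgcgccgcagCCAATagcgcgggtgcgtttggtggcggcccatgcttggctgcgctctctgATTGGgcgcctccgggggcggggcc
MTHFD1, chr14:64388103-64388352 (+): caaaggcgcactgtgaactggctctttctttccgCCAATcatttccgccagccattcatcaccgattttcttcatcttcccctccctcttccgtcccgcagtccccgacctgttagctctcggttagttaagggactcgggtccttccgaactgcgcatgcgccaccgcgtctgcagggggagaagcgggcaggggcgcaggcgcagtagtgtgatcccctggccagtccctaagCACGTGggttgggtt
MTHFD1L, chr6:150866236-150866485 (+): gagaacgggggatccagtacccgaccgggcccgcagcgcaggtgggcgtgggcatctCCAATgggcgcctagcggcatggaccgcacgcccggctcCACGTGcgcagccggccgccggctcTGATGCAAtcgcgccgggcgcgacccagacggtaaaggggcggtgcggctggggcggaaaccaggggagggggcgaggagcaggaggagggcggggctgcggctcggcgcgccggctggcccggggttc

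The core of the C/EBP and ATF response element, through which ATF4 acts, was searched as TGATGNAA on both strands. Of these 7 genes, MTHFD1L alone held a match, in 3 overlapping windows around 1 start region, and 3.62% of all 35116 windows of the same length held one. The log2 fold change of MTHFD1L was 0.05. No window was at hand for PSPH, SHMT2 and ALDH1L2, and a link between these motifs and the levels was not tested. The CCAAT box, also searched on both strands, was in windows of PHGDH, PSAT1, SHMT1, MTHFD1, MTHFD2 and MTHFD1L (6 of 7 genes). Counted by window it was in 8 of the 11 windows of the 7 genes, against 34.6% of all windows. The overlapping windows of MTHFD1L are among those 8. The CCAAT box stood in genes that rose, in the gene that fell and in genes that did not pass. The E-box CACGTG was in MTHFD1 and MTHFD1L (4 of the 11 windows) and in 7.26% of all windows. PHGDH and MTHFD2 shared a run of 12 bases, TCCAATCAAAAG, which contains the CCAAT box and is the longest run that their windows share. It starts 72 bases before the annotated start in PHGDH and 185 bases before it in MTHFD2. On either strand 6 of 35116 windows (0.0171%) held it, those of PHGDH and MTHFD2 among them. The run was picked because these windows share it, so that percentage does not measure how unusual the sharing is. The CCAAT box, the E-box and the shared run were chosen after the sequences were seen. A match describes the letters and not a bound site, and no match says only that these letters are not in this window.

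Of the 10 genes, 3 rose and 1 fell by edgeR's quasi-likelihood test, with Benjamini-Hochberg adjusted p under 0.05 over all 13744 tested genes. Across all tested genes 8.58% were called higher and 7.53% lower (5.75% and 3.02% with library totals alone, where 1 of the 10 rose and 0 fell). The groups did not overlap for 8 of the 10 genes, against 65.2% of all tested genes. The median log2 fold change of the 10 was 0.49, and that of all tested genes was 0.00. Levels are in CPM after TMM scaling of the libraries, with the SD over n = 2. A positive log2 fold change means a higher level with RB-BC, and its standard error (SE) follows it. Each library pools RNA from many cells, so less transcript per cell and fewer cells with the transcript cannot be told apart.

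**Figure D1:**
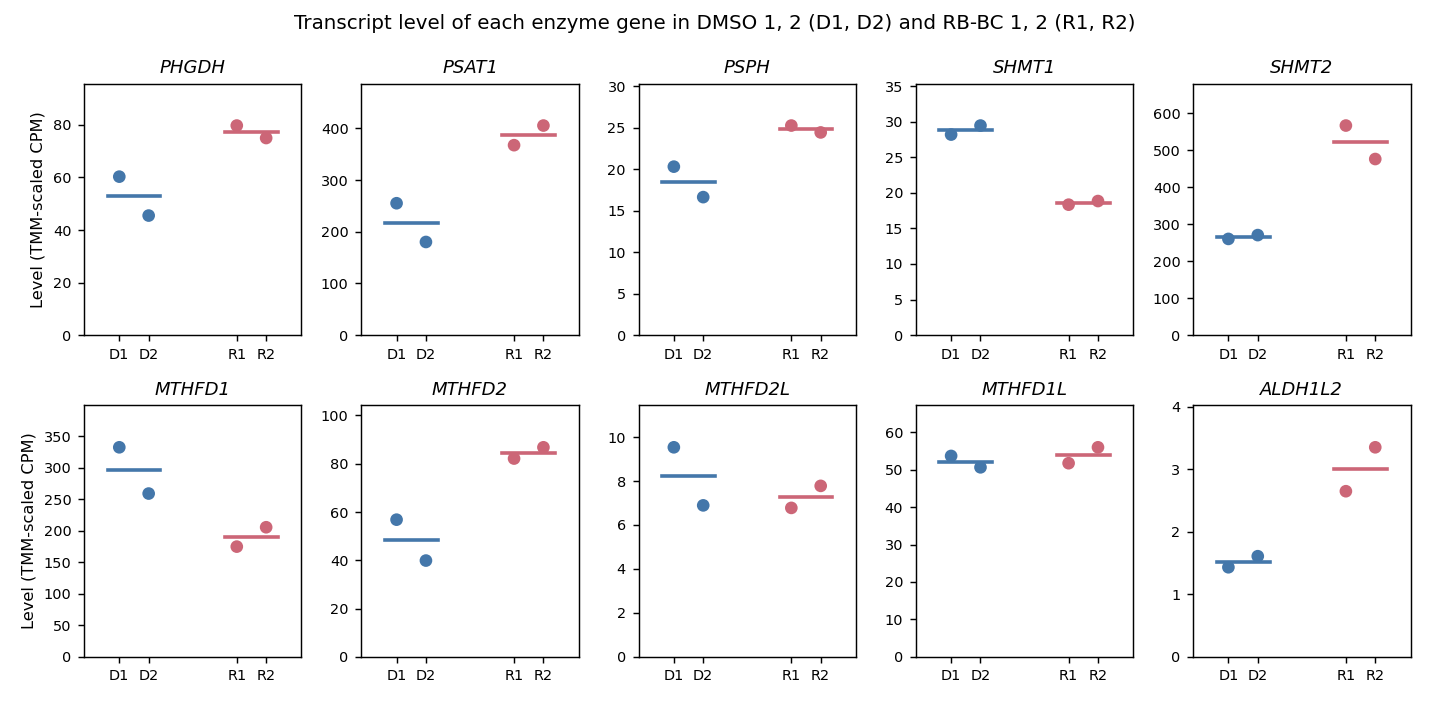
Level of each of the 10 genes (y axis, TMM-scaled CPM, from 0) in the 4 libraries (x axis: D1 and D2 are DMSO 1 and 2, R1 and R2 are RB-BC 1 and 2); points are libraries and lines are group means, n = 2. SHMT1 and MTHFD1 lie lower in both RB-BC libraries, the groups overlap for MTHFD2L and MTHFD1L, and the other 6 genes lie higher in both RB-BC libraries.

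In the serine synthesis branch all 3 genes were higher in both RB-BC libraries than in either DMSO library, and 1 of them passed the test. Over all tested genes the groups did not overlap, in either direction, for 65.2%, and 8.58% were called higher. PSAT1, the aminotransferase, had 255 and 180 CPM in DMSO 1 and 2 and 368 and 406 CPM in RB-BC 1 and 2. The DMSO libraries lay further apart than the RB-BC libraries, with the lowest level in DMSO 2. PSAT1 rose by a log2 fold change of 0.83 ± 0.20 (SE, edgeR adjusted p = 0.0447). In a fit without 1 DMSO library the RB-BC pair alone sets the spread, and the lone DMSO library is assumed to vary like it. PSAT1 was then at 0.60 without DMSO 2 (edgeR adjusted p = 0.0293) and at 1.10 without DMSO 1 (edgeR adjusted p = 0.0118).

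PHGDH, the dehydrogenase that opens the pathway, had 60.3 and 45.5 CPM in DMSO and 79.8 and 75.0 CPM in RB-BC. Its log2 fold change of 0.55 ± 0.18 (95% interval 0.11 to 0.98) did not pass (edgeR adjusted p = 0.0859). PSPH, the phosphatase of the last step, had 20.3 and 16.6 CPM in DMSO and 25.2 and 24.4 CPM in RB-BC, and was at 0.43 ± 0.17 (edgeR adjusted p = 0.129). In each of the 3 genes DMSO 2, which had the high mitochondrial share, gave the lowest of the 4 values. Without DMSO 1, with DMSO 2 as the lone control and the spread from the RB-BC pair, both PHGDH (0.77, edgeR adjusted p = 0.0190) and PSPH (0.58, edgeR adjusted p = 0.0459) passed, and without DMSO 2 neither did (0.36 and 0.29, edgeR adjusted p = 0.0871 and 0.168).

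The serine hydroxymethyltransferases went in opposite directions. SHMT2, the mitochondrial enzyme, had 260 and 270 CPM in DMSO and 567 and 476 CPM in RB-BC, a log2 fold change of 0.97 ± 0.16 (edgeR adjusted p = 0.0174). The DMSO libraries lay close together, and both RB-BC libraries were far above them. SHMT1, the cytosolic enzyme, had 28.2 and 29.4 CPM in DMSO and 18.3 and 18.8 CPM in RB-BC, and fell by 0.63 on the log2 scale (SE 0.15, edgeR adjusted p = 0.0381). Neither gene showed the gap between DMSO 1 and DMSO 2 seen in the serine synthesis genes. Without DMSO 2 their log2 fold changes were 1.00 and −0.60, and both passed.

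The other cytosolic member, MTHFD1, carries out 3 folate interconversions in 1 protein. It had 332 and 259 CPM in DMSO and 175 and 205 CPM in RB-BC. All RB-BC values lay below all DMSO values, but the log2 fold change of −0.64 ± 0.18 did not pass (edgeR adjusted p = 0.0651). With the spread from the RB-BC pair alone, MTHFD1 passed without DMSO 2 (−0.81, edgeR adjusted p = 0.0189), and was at −0.44 without DMSO 1 (edgeR adjusted p = 0.0833).

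Among the 4 mitochondrial interconversion enzymes, MTHFD2 was the 1 that passed (8.58% of all tested genes rose and 7.53% fell). MTHFD2 is a dehydrogenase and cyclohydrolase that is high in embryos and tumours and low in most adult tissues. It had 56.8 and 39.9 CPM in DMSO and 82.2 and 86.8 CPM in RB-BC (log2 fold change 0.80 ± 0.20, edgeR adjusted p = 0.0448). As with PSAT1, the DMSO libraries lay further apart than the RB-BC libraries. Without DMSO 2 the value was 0.57 (edgeR adjusted p = 0.0300), and without DMSO 1 it was 1.08.

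MTHFD2L, a paralog with the same reactions, had 9.53 and 6.89 CPM in DMSO and 6.78 and 7.78 CPM in RB-BC. Its groups overlapped, and the log2 fold change was −0.18 ± 0.24 (95% interval −0.75 to 0.40). It was at 0.08 without DMSO 1 and −0.39 without DMSO 2, so its direction rested on which DMSO library was used. MTHFD1L, which releases formate from folate in mitochondria, had 53.7 and 50.6 CPM in DMSO and 51.7 and 56.0 CPM in RB-BC. Its log2 fold change was 0.05 ± 0.14, with a 95% interval from −0.29 to 0.38. ALDH1L2, which oxidises formyl-folate to carbon dioxide and makes NADPH in mitochondria, was the least abundant member, with 1.43 and 1.61 CPM in DMSO and 2.65 and 3.35 CPM in RB-BC. Those levels rest on 54, 54, 115 and 147 counts. Its log2 fold change of 0.98 ± 0.29 was as large as that of SHMT2, with a wider interval (0.28 to 1.68), and it did not pass (edgeR adjusted p = 0.0682).

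**Figure D2:**
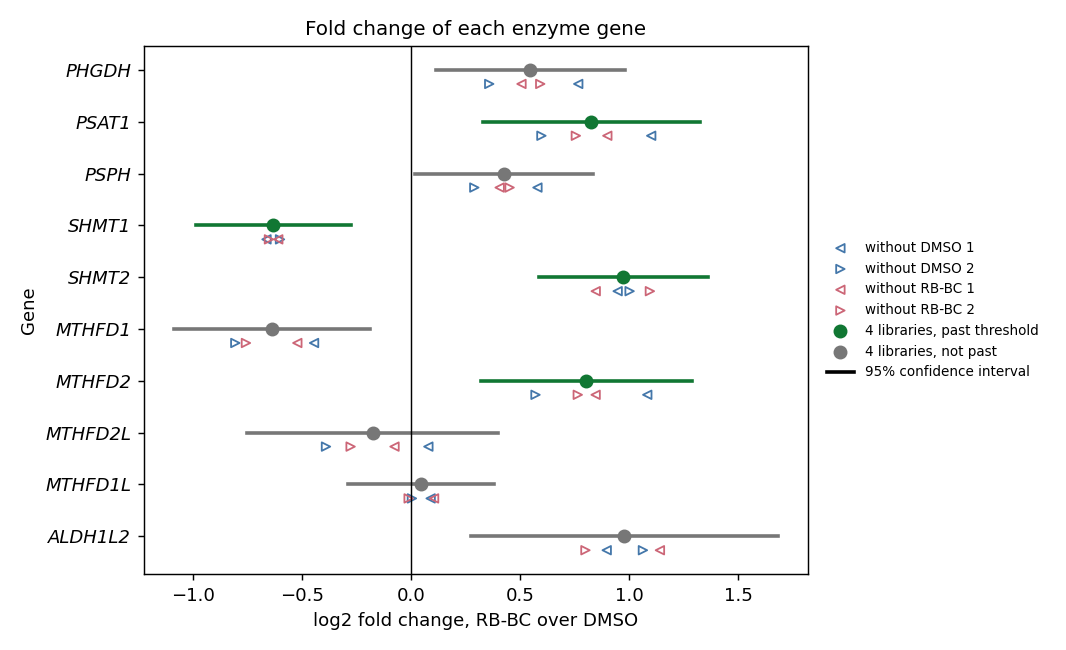
Log2 fold change (x axis, RB-BC over DMSO) of each gene (y axis) from all 4 libraries, with its 95% confidence interval; green marks genes past the threshold, and open triangles give the value with 1 library left out. PSAT1, SHMT2 and MTHFD2 lie above 0 and SHMT1 below 0 in every such fit, while MTHFD2L and MTHFD1L cross 0.

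The 4 calls rested on both RB-BC libraries. Without RB-BC 1 or without RB-BC 2, where the DMSO pair alone sets the spread, 0 of the 10 genes passed edgeR's test. Adjusted p-values were then 0.162 and 0.0694 for SHMT2, 0.182 and 0.209 for PSAT1, 0.190 and 0.187 for MTHFD2, and 0.295 and 0.212 for SHMT1. The share of all tested genes called in these fits was 1.47% and 3.23%, against 16.1% with 4 libraries. With library totals alone SHMT2 passed (edgeR adjusted p = 0.0251), and PSAT1, MTHFD2 and SHMT1 did not (edgeR adjusted p = 0.0941, 0.108 and 0.126). After removal of the mitochondrially encoded genes, 3 of the 10 rose and 1 fell (8.77% and 7.59% of all tested genes). Without DMSO 1 it was 5 and 1 (11.5% and 11.6%), and without DMSO 2 it was 3 and 2 (13.5% and 12.5%). DESeq2 called 4 and 2 (11.9% and 11.5%), and the fit with the replicate number as a block called 3 and 0 (8.38% and 7%).

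Ratios of 2 genes' counts within a library do not depend on how that library is scaled, and they were used to compare enzymes of like function. SHMT2 had 9.23 and 9.18 counts per count of SHMT1 in DMSO 1 and 2, and 30.9 and 25.3 in RB-BC 1 and 2. The geometric mean ratio was 3.04-fold higher in RB-BC, a difference of 1.60 on the log2 scale. MTHFD2 had 5.96 and 5.79 counts per count of its paralog MTHFD2L in DMSO, and 12.1 and 11.2 in RB-BC (0.99 on the log2 scale). For this pair the DMSO libraries gave nearly the same ratio although each gene's level differed between them. MTHFD1L had 0.162 and 0.196 counts per count of the cytosolic MTHFD1 in DMSO and 0.296 and 0.273 in RB-BC (0.68). MTHFD2 had 0.171 and 0.154 counts per count of MTHFD1 in DMSO and 0.470 and 0.423 in RB-BC (1.46). In all 4 pairs both RB-BC libraries lay above both DMSO libraries. A two-sided exact permutation test of 2 against 2 libraries gives p = 0.33 for each pair, the smallest value this design allows, so these differences are described and not called. The pairs share genes and are not independent of each other or of the fold changes above.

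**Figure D3:**
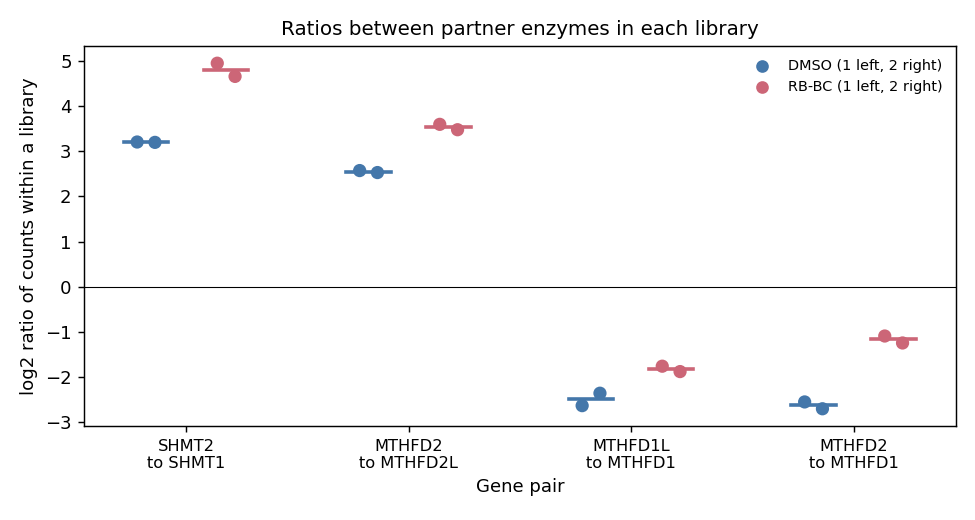
Log2 ratio of the counts of 2 genes within each library (y axis) for 4 gene pairs (x axis); points are libraries, blue for DMSO and red for RB-BC, and lines are group means, n = 2. For SHMT2 to SHMT1 the mean goes from 3.20 in DMSO to 4.80 in RB-BC, and in every pair the RB-BC points lie above the DMSO points.

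To compare levels between genes, CPM was divided by the length in kilobases of each gene's principal coding transcript in GENCODE release 29. On this scale (CPM per kb) SHMT2 (105 ± 2.89, SD, n = 2), PSAT1 (99.5 ± 24.3) and MTHFD1 (94.2 ± 16.5) were the highest in DMSO, and their libraries overlapped. PHGDH (20.5 ± 4.05) and MTHFD1L (14.5 ± 0.597) came next, followed by SHMT1 (11.7 ± 0.364), MTHFD2 (10.9 ± 2.69) and PSPH (8.47 ± 1.19). In DMSO MTHFD2 overlapped with both SHMT1 and PSPH. MTHFD2L (3.57 ± 0.812) and ALDH1L2 (0.202 ± 0.0166) were the lowest. In RB-BC the order was SHMT2 (205 ± 25.3), PSAT1 (177 ± 12.3), MTHFD1 (60.6 ± 6.92), PHGDH (29.9 ± 1.30), MTHFD2 (19.0 ± 0.738), MTHFD1L (14.9 ± 0.835), PSPH (11.4 ± 0.270), SHMT1 (7.54 ± 0.149), MTHFD2L (3.16 ± 0.308) and ALDH1L2 (0.398 ± 0.0658), with no overlap between neighbours. The order within a group depends on the length used: with all annotated exons counted, PSAT1 (99.5) stood above SHMT2 (54.8) in DMSO and PHGDH (5.74) below MTHFD1L (10.4).

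Neither the authors' annotation nor their strand setting is stated, so reads from overlapping genes and close copies may not be separated. In GENCODE 29, MTHFD2 has 7 pseudogenes named for it, PSAT1 has 4, and PSPH, SHMT1 and MTHFD1 have 1 each. On the opposite strand SLC4A5 covers 1324 of the 4870 exon bases of MTHFD2, but its own level was at most 1.15 CPM. ZBTB25 shares 178 of 9377 exon bases with MTHFD1 and went the other way, from 13.7 ± 0.779 to 25.6 ± 0.526 CPM. Other neighbours on the opposite strand lay well above the member they overlap. SMCR8 shares 196 of 7281 exon bases with SHMT1 and had 128.5 ± 26.3 CPM in DMSO and 147 ± 3.04 CPM in RB-BC. C12orf45 shares 145 of 8507 exon bases with ALDH1L2 and had 18.3 ± 0.0490 and 18.6 ± 0.379 CPM. How many of the members' counts came from such neighbours was not tested.

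The genes whose pattern over the 4 libraries was nearest to that of PSAT1, by Euclidean distance of centred log2 CPM among genes with a mean of at least 50 counts, were led by MTHFD2 (distance 0.0519). GCC1 (0.0694), E2F5 (0.0716), RPS15A (0.0873) and MEX3A (0.0888) followed. MTHFD2 was thus the nearest of 12218 genes, over only 4 libraries. PSAT1 and each of these genes were lower in DMSO 2, the library with the high mitochondrial share, than in DMSO 1. The log2 ratio of DMSO 2 to DMSO 1 was −0.50 for PSAT1 and −0.51 for MTHFD2. Whether the closeness rests on that library was not tested. PHGDH ranked 324, ALDH1L2 823, PSPH 872 and SHMT2 1062 in the same order, and SHMT1 ranked 10504.

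Other genes of the folate pathway were tested in the same fit. GGH, which trims the glutamate tail of folates, had 36.8 and 26.5 CPM in DMSO and 15.7 and 18.6 CPM in RB-BC, and fell by 0.89 on the log2 scale (SE 0.21, edgeR adjusted p = 0.0413). TYMS, which makes thymidylate from a folate-bound carbon, had 158 and 182 CPM in DMSO and 84.8 and 86.0 CPM in RB-BC (log2 fold change −0.99 ± 0.15, edgeR adjusted p = 0.0144). Both RB-BC libraries lay below both DMSO libraries for each of these genes. The mitochondrial folate carrier SLC25A32, chosen after its value was seen, did not pass (−0.42 ± 0.15, edgeR adjusted p = 0.107). The purine synthesis enzymes that use formyl-folate, GART (0.01 ± 0.14) and ATIC (−0.03 ± 0.13), also chosen after their values were seen, did not pass.

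Of 10 genes of glycine cleavage and of mitochondrial serine and glycine transport, 9 were tested, 0 rose and 2 fell (8.58% and 7.53% over all tested genes), with a median of −0.45. Both encode sideroflexins of the mitochondrial inner membrane. Another sideroflexin gene of the list, SFXN3, named after its value was seen, did not pass (0.07 ± 0.16, edgeR adjusted p = 0.782). SFXN1, a mitochondrial serine carrier that supplies SHMT2, had 83.9 and 92.8 CPM in DMSO and 57.0 and 60.2 CPM in RB-BC (log2 fold change −0.59 ± 0.14, edgeR adjusted p = 0.0401). SFXN2 fell by 1.04 (edgeR adjusted p = 0.0199). SFXN1 thus went against SHMT2. GLDC, the decarboxylase of the glycine cleavage system, named after its value was seen, was close to 0 in all libraries (at most 0.159 CPM).

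Among 7 carriers that bring serine, glycine and other small neutral amino acids through the plasma membrane, 6 were tested, 3 rose and 1 fell (8.58% and 7.53% over all tested genes), with a median of 0.69. SLC1A5 had 304 and 251 CPM in DMSO and 537 and 505 CPM in RB-BC (log2 fold change 0.91 ± 0.16, edgeR adjusted p = 0.0209). The glycine carrier SLC6A9 rose by 0.91 (edgeR adjusted p = 0.0191) and SLC38A2 by 0.82 (edgeR adjusted p = 0.0364), while SLC38A4 fell by 1.30 (edgeR adjusted p = 0.0178).

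Over all tested genes 8.58% rose and 7.53% fell, as background to the next 3 counts. Of 11 genes that use serine or glycine, 10 were tested and 1 rose: SDSL, a serine dehydratase-like gene, from 6.44 ± 1.22 to 14.6 ± 1.23 CPM (1.18 ± 0.21, edgeR adjusted p = 0.0209). CBS, which joins serine to homocysteine, had no count in any library. In GRCh38 it has a near-identical copy, so this 0 is uncertain. Of 9 methionine cycle genes, 6 were tested and 1 fell: MAT2A, which makes S-adenosylmethionine, from 384 ± 33.3 to 175 ± 4.38 CPM (−1.14 ± 0.15, edgeR adjusted p = 0.0113). MTAP, BHMT and BHMT2 had no count in any library. Of 13 glycolytic enzymes, which lie both before and after 3-phosphoglycerate, 1 rose, PGK1, which makes 3-phosphoglycerate (0.79 ± 0.14, edgeR adjusted p = 0.0218), and 1 fell, HK2 (−0.57 ± 0.15, edgeR adjusted p = 0.0471). The medians of these 3 lists were −0.11, 0.19 and 0.25.

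Of 15 genes listed as ATF4 and its textbook targets outside these enzymes, 11 rose and 0 fell (8.58% and 7.53% over all tested genes), with a median of 1.83. SLC7A11 (0.26), ATF3 (0.46), VLDLR (0.46) and STC2 (1.05) did not pass. ATF4 itself had 382 and 365 CPM in DMSO and 997 and 943 CPM in RB-BC (log2 fold change 1.38 ± 0.15, edgeR adjusted p = 0.00853). The genes with the smallest adjusted p-values were CTH (2.47), CEBPB (2.77), SESN2 (1.83) and NUPR1 (2.28), all larger than any of the 10 serine and folate enzymes. ASNS, the asparagine synthetase gene, was at 1.06 ± 0.14. ATF4, ASNS and the 4 genes of this list that did not pass were named after their values were seen, and most of this list was already known to rise in these libraries, so its count is a description. Of 6 other genes, 5 regulators and the glycerate kinase gene GLYCTK, 0 rose and 1 fell, MTOR (−0.73 ± 0.14, edgeR adjusted p = 0.0250). MYC, which is known to drive SHMT2 and MTHFD2 and was also named after its value was seen, had 7.52 and 28.6 CPM in DMSO 1 and 2 and 35.4 and 34.0 CPM in RB-BC, and did not pass (0.94 ± 0.55, edgeR adjusted p = 0.274).

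**Figure D4:**
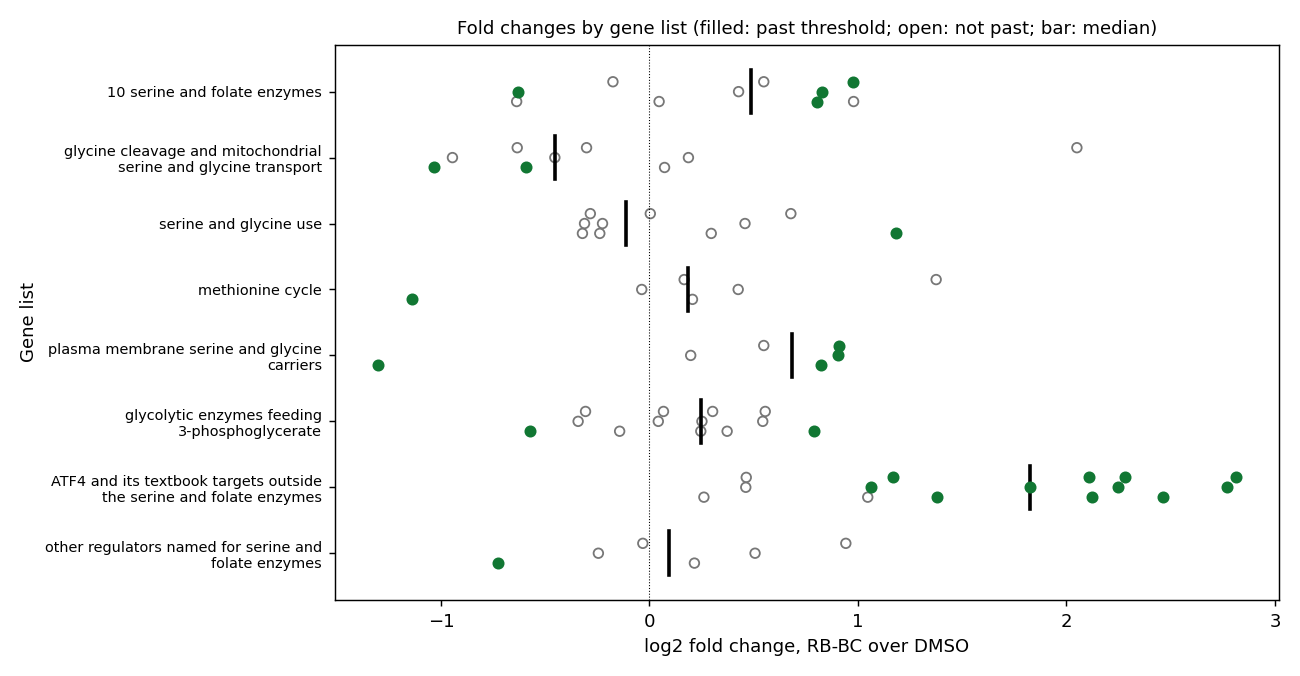
Log2 fold change (x axis, RB-BC over DMSO) of each tested gene in the 10 serine and folate enzymes and in 7 lists of related genes (y axis); filled points passed the threshold, open points did not, and bars are list medians. The ATF4 list has its median at 1.83, while the other lists hold genes on both sides of 0.

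In every list that held calls, that of ATF4 and its targets included, some or all calls were lost without 1 RB-BC library. ATF4 itself lost its call without RB-BC 1, and ASNS lost its call without either of them. Without RB-BC 1 and without RB-BC 2, log2 fold changes were 1.34 and 1.42 for ATF4, 0.87 and 0.95 for SLC1A5, and −0.55 and −0.63 for SFXN1. These fits leave 1 RB-BC library, and most of the ATF4 list was already known to rise, so the lists are not compared by them. With library totals alone GGH, SFXN1, SLC38A2, HK2 and MTOR did not pass (edgeR adjusted p = 0.111, 0.114, 0.0517, 0.125 and 0.0914). Without DMSO 1 GGH and SLC38A2 did not pass (edgeR adjusted p = 0.0536 and 0.0506). The block on the replicate number took away the calls of SFXN1 and HK2 (edgeR adjusted p = 0.0691 and 0.0800). Dropping the filter on low counts took away that of HK2 (edgeR adjusted p = 0.0546).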

How the data were processed

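RNA from 4 MDA-MB-231 libraries was compared, 2 per group, with groups and replicate numbers taken from the sample titles. The authors deposited 1 table of whole-number read counts per Ensembl gene, not normalized as far as its values show. Which aligner, counter, strand setting and annotation were used is not stated. The builds in the submitters' processing notes, GRCm38 and mm10, are of the mouse while the identifiers are human, so coordinates are given only for RefSeq promoter sequences. Symbols came from an identifier table (20148 genes) and GENCODE release 29 (76), and 39 had none.

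Genes were kept by filterByExpr (minimum count 10, total 15), scaled by TMM and tested two-sided with edgeR 4.0.16 (glmQLFit, glmQLFTest) in R 4.3.3, at an adjusted p of 0.05. The fit was checked on simulated counts. Ratios within a library had 0.5 counts added on the log2 scale. Alternatives were RLE factors, library totals, no filter, a stricter filter (mean count 50), limma-voom (limma 3.58.1), DESeq2 1.42.0, the replicate number as a block, removal of mitochondrially encoded genes, and each library left out. Named genes were the 10 members, up to 4 called genes per list with the smallest adjusted p, and the 5 genes nearest to PSAT1, apart from those said to be chosen later. Some genes that this rule names, and the counts of the lists that hold them, are not reported here. The members and lists were chosen with earlier results of these data known.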

Additional observations from a re-analysis of the deposited data

How the results depend on the processing

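Of the 10 genes, the number that rose (3 with all libraries) was 1 with library totals alone and 0 to 5 with 1 library left out. The number that fell (1) was 0 with library totals alone, 0 with the replicate block, 2 with DESeq2 and 0 to 2 with 1 library left out. DESeq2 added PHGDH (adjusted p = 0.0499) to the genes that rose and MTHFD1 (adjusted p = 0.0141) to those that fell. The labels do not say whether same-numbered libraries were prepared together. Their deviations from the group means had a correlation of −0.07 across 13744 genes, which cannot settle that. Under the replicate block 3 genes rose and SHMT1 was lost (edgeR adjusted p = 0.0595). With 1 library left out MTHFD2L ranged from −0.39 to 0.08 and MTHFD1L from −0.01 to 0.11 on the log2 scale. The sign of MTHFD2L turned without DMSO 1 (0.080) and that of MTHFD1L without RB-BC 2 (−0.011). The other 8 genes kept their direction in all 12 alternatives, and the 4 ratios between partner enzymes kept theirs with 1 library left out and with 5 counts added. The median of all tested genes moved to 0.05 at most. List counts over all alternatives ranged from 8 to 12 higher for ATF4 and its targets, 0 to 4 higher for plasma membrane carriers, 0 to 3 lower for glycine cleavage and mitochondrial transport, and 0 to 3 higher and 0 to 2 lower for glycolytic enzymes. Depth limits ALDH1L2 most, with 54 counts in each DMSO library.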
